A study of Mus musculus with 4 samples.

Results

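Shared Runx3 peaks at the edges of non-coding genes are ChIP peaks that overlapped a CUT&RUN peak by at least 1 bp and had their ChIP summit within 1 kb of an end of a gene that makes no protein, and not within 1 kb of an end of any protein-coding gene. There were 497 of them among the 13166 ChIP peaks. They made up 5.72% (95% interval 5.24 to 6.23) of the 8694 ChIP peaks on chromosomes 1 to 19 and X that overlapped a CUT&RUN peak, which are called shared peaks here. Of the other shared peaks, 3318 lay at protein-coding gene edges and 4879 at no gene edge. A further 285 ChIP peaks at the same kind of non-coding edge overlapped no CUT&RUN peak. The peaks were chosen by overlap of the lists, summit position and gene type, so these counts are a description.

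Both libraries came from CD8 T cells of wild type adult mice, taken from the spleen with magnetic beads that bind CD8a. For chromatin immunoprecipitation (ChIP), 50000000 frozen cells from 5 mice were sonicated and captured with a rabbit antiserum against Runx3 diluted 1 in 200. CUT&RUN, where a nuclease tethered through the antibody cuts out the DNA next to its target, used 150000 fresh cells from 1 mouse and the same antiserum at the same dilution. The controls were a whole cell extract, which entered the peak calls of the ChIP list, and a CUT&RUN library with normal rabbit serum, which was not analysed here. There was 1 library per assay. The assays therefore have no replicate check, and assay, cell number, freezing, mice, fragment selection and calling settings differed together. After duplicate removal 9532996 ChIP fragments and 14068364 CUT&RUN fragments remained. All 6 T cell marker genes examined, Cd3d, Cd3e, Cd3g, Cd8a, Cd8b1 and Cd4, had a peak of each assay within 10 kb. Of the markers of other cells, the B cell gene Cd79a had one in each assay, and the B cell gene Ms4a1, the myeloid genes Lyz2, Csf1r and Adgre1 and the erythroid genes Hba-a1 and Hbb-bt had none in either.

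RUNX proteins, Runx3 among them, bind DNA through their Runt domain together with the partner protein Cbfb, and Runx3 is known for its part in setting the CD8 T cell fate. They recognise a short core sequence with a TGTGGT or TGCGGT hexamer, and in T cells they often bind near ETS factors, whose core is GGAA. Non-coding genes are of several kinds. Long non-coding RNAs (lncRNAs) and the hosts of small nucleolar RNAs (snoRNAs) are made by RNA polymerase II, tRNAs by RNA polymerase III, and the V, D and J segments of antigen receptor loci are pieces of genes that lymphocytes join by recombination.

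The sequences under a number of the strongest peaks at lncRNA starts are printed to show where the RUNX hexamers lie. The promoter windows are those of RefSeq for GRCm38.p6 (mm10), 250 bases before and 50 after each gene's start, and 281 of the 368 lncRNA genes with such a peak had one. Of these genes, 90 had a window that held both the ChIP and the CUT&RUN summit. Each line gives up to 60 bases on both sides of the CUT&RUN summit, as far as the window reaches, read along the strand of the gene. Capitals mark TGTGGT or TGCGGT on either strand, so that ACCACA and ACCGCA are the same hexamers on the other strand. Of the first 10 genes by ChIP rank 9 had a hexamer in this stretch, and 13 of the first 20 and 37 of all 90 did. Stretches of this length in other windows were not counted, so these numbers have no background share beside them. The stretches below are from the first 10, and 9430083M05Rik is the one of the 10 with no hexamer in its stretch. Its window holds 1 RUNX hexamer outside that stretch, 5.5 bp from the ChIP summit, which the stretch does not reach.
Gm41331, chr15:60141746-60141866, plus strand: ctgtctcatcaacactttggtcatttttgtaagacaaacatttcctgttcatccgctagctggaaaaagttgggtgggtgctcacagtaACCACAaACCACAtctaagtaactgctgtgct
Gm51782, chr10:116913915-116914008, plus strand: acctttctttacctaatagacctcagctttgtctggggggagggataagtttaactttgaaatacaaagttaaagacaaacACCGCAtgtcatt
Chaserr, chr7:73558409-73558529, minus strand: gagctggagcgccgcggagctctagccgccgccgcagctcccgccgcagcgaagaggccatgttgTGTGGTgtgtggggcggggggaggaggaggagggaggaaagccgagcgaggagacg
Gm15323, chr13:112000798-112000918, plus strand: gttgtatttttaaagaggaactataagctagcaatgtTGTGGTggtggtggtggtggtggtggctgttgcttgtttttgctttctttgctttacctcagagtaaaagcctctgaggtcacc
Snhg9, chr17:24719958-24720078, minus strand: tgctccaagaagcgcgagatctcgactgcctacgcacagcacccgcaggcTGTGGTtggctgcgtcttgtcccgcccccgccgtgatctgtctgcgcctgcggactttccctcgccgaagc
Gm30369, chr8:3355697-3355817, minus strand: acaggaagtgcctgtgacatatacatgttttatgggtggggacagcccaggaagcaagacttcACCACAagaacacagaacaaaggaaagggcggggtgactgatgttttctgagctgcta
Gm4668, chr9:116189075-116189195, plus strand: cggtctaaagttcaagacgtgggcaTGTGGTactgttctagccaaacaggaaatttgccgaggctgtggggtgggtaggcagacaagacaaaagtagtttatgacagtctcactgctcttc
9430083M05Rik, chr4:152325742-152325862, minus strand: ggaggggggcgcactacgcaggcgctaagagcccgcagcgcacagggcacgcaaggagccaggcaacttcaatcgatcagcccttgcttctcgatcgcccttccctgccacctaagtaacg

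The ChIP summit at Gm41331 lay 14 bp upstream of the lncRNA's start, in a window with 3 RUNX hexamers, of which a pair stand 1 base apart in the stretch shown. Its pileup, the number of deduplicated fragments over the summit, was 38 in ChIP (95% interval 26.9 to 52.2) and 115 in CUT&RUN. At Gm51782, inside the protein-coding gene Rab3ip, the ChIP summit lay 161 bp upstream of the start, with a ChIP pileup of 36 and a CUT&RUN pileup of 128. Chaserr is a conserved lncRNA upstream of Chd2, which encodes a chromatin remodeller, and its ChIP summit lay 76 bp upstream of its start. Pileups there were 36 in ChIP (25.2 to 49.8) and 55 in CUT&RUN, and the summits of the assays, at chr7 73558471 and 73558469, were nearly at the same base. The intervals hold counting error alone. Fragments at the same position were counted once, and whether those left are independent molecules was not tested. Pileups are not set against each other between assays, since depth, duplicate rate and fragment selection differed.

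Peaks lay at an end of 517 of the 27923 non-coding genes in the RefSeq table, or 1.85%. That count leaves out summits that also lay beside a protein-coding edge. With those included, 1005 of the 27923 had a shared summit within 1 kb of an end. By that wider count, 3747 of 21627 protein-coding genes had one, or 17.3%. Of those 517 genes, 79.3% had a provisional symbol (Gm, LOC or Rik), against 82.7% of all non-coding genes. The classes differed in how often they had a peak. They also differed in gene length, with medians of 72 bp for tRNA, 930.5 bp for pseudogene and 8399 bp for lncRNA genes. The 1 kb windows around both ends of a short gene overlap, so less sequence was searched per gene. The shares were not adjusted for this. Of the lncRNA genes 368 of 12706 had one, or 2.9% (2.61 to 3.20), and they accounted for 380 of the 497 peaks. Of the tRNA genes 20 of 408 had one, or 4.9% (3.02 to 7.47), and of the receptor segments 25 of 686, or 3.64% (2.37 to 5.33). Pseudogenes, copies of genes that have lost their function, had the lowest share, with 54 of 10332 or 0.523% (0.393 to 0.681). The interval for pseudogenes lay below that of every other class except snoRNA and microRNA genes. The small nuclear RNA (snRNA) genes of the spliceosome stood at 17 of 1003 or 1.69% (0.990 to 2.70), microRNA genes at 13 of 1228 or 1.06% (0.565 to 1.80), snoRNA genes at 14 of 1381 or 1.01% (0.555 to 1.70) and the remaining kinds at 6 of 179 or 3.35% (1.24 to 7.15). A peak near genes of several classes counts in each class. With summits beside a protein-coding edge included, 766 lncRNA, 36 tRNA, 25 receptor segment and 73 pseudogene entries had a shared summit. So had 26 snRNA, 39 microRNA, 28 snoRNA and 12 other genes. Receptor segments thus stood above lncRNAs in share under the rule used here, and below them by this wider count. How reads from near-identical copies were assigned is not given in the sources used here, and this touches pseudogenes, snRNA, tRNA and receptor segments most.

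**Figure D1:**
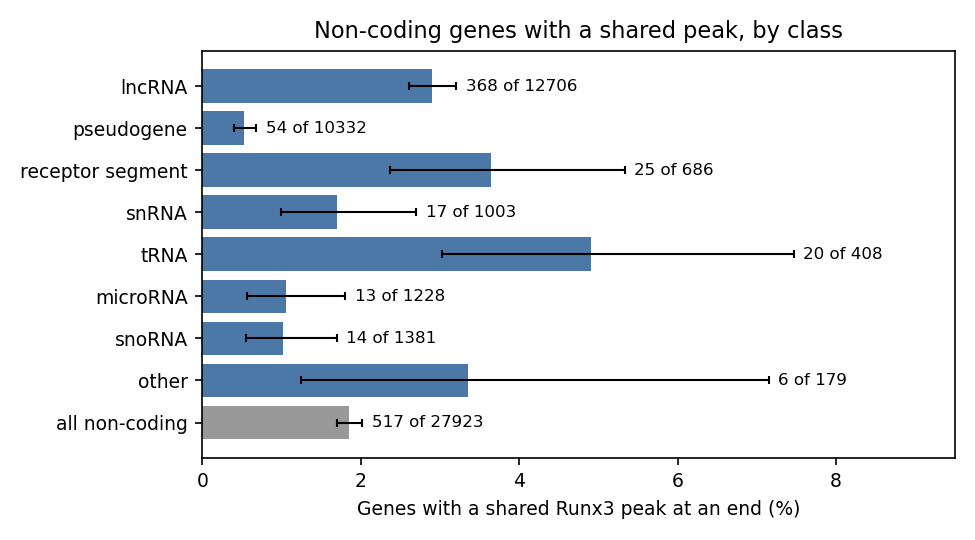
Percentage of genes of each non-coding class with a shared Runx3 peak at an end (horizontal axis), with the number of genes beside each bar and exact 95% intervals as error bars. Genes of tRNA have the longest bar, at 4.9%, and pseudogenes the shortest, at 0.523%. Peaks also within 1 kb of a protein-coding edge are not counted. Shares are not adjusted for the gene length of a class.

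The peaks were about as high as other shared peaks. The median ChIP pileup was 14 (quartiles 10 and 20) at non-coding edges, against 13 (10 and 18) at protein-coding edges and 14 (10 and 20) at no edge. The median CUT&RUN pileup was 33 (22 and 53), against 29 (20 and 45) at protein-coding edges and 35 (22 and 57) at no edge. In the ChIP list, 66 of the 497 peaks stood in the top 10%, in the CUT&RUN list 71 did, and 36 were in the top 10% of both. As a share, 13.3% (10.4 to 16.6) were in the top 10% of ChIP peaks, against 11.6% (10.6 to 12.8) of shared peaks at protein-coding edges and 16.6% (15.5 to 17.6) at no edge. Across 496 peaks, without the 1 on a high background described below, ChIP and CUT&RUN pileups had a Spearman correlation of 0.46 and a Pearson correlation of 0.498 on the log2 scale. These points share their libraries, and peaks are not replicates.

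ChIP peaks at non-coding edges that CUT&RUN did not list were lower, with a median ChIP pileup of 9 (quartiles 8 and 11, highest 32). Of the 782 ChIP peaks at such edges 63.6% overlapped a CUT&RUN peak, against 66.6% of all 13050 on these chromosomes. ChIP-only peaks were at non-coding edges in 6.54% of 4356 cases, close to the 5.72% of shared peaks. The share of ChIP peaks that were shared was thus no higher at non-coding edges than over the list.

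**Figure D2:**
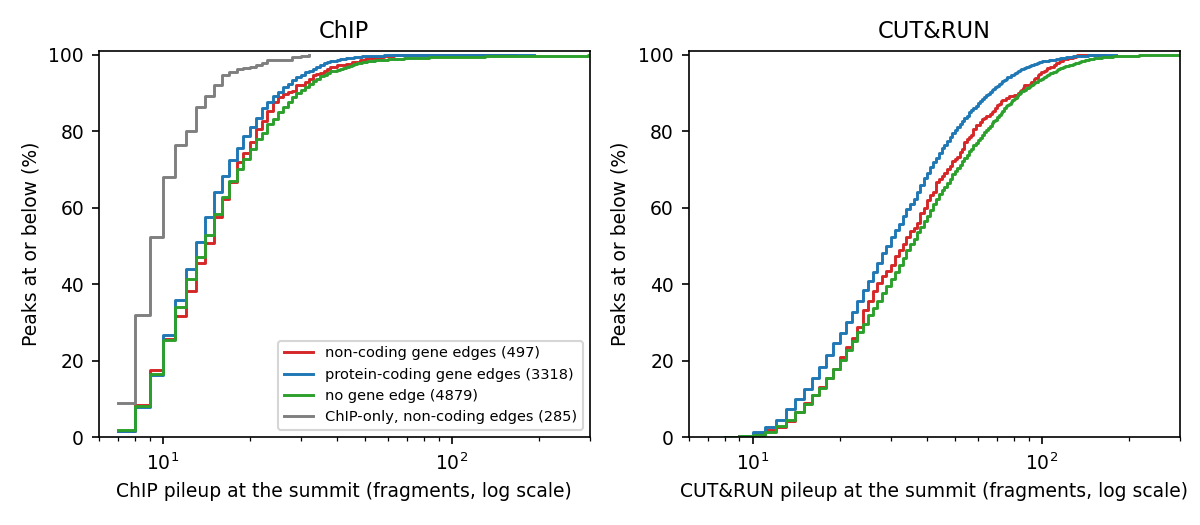
Cumulative percentage of peaks at or below each pileup (fragments over the summit, log scale) in ChIP (left) and CUT&RUN (right), for shared peaks at non-coding edges, at protein-coding edges and at no edge, and in ChIP for ChIP-only peaks at non-coding edges. The curves of the 3 shared groups lie close together, with medians of 14, 13 and 14 in ChIP, and the ChIP-only curve lies to their left with a median of 9.

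The summits of the assays were closer at non-coding edges than at protein-coding ones. Their median distance was 34 bp (quartiles 15 and 67), against 46 bp (20 and 91) at protein-coding edges and 30 bp (14 and 59) at no edge. Summits lay within 50 bp of each other in 65.6% (61.2 to 69.8) of peaks at non-coding edges, against 53.1% (51.4 to 54.8) at protein-coding edges and 69.0% (67.7 to 70.3) at no edge. ChIP peaks were 304 bp wide at the median, against 332 bp and 300 bp in those groups. Of the 497 peaks 173 (34.8%, 30.6 to 39.2) had their summit inside a protein-coding gene, against 60.9% (59.5 to 62.3) of shared peaks at no edge. The nearest protein-coding edge was 13.9 kb away at the median (quartiles 4.84 and 36.0 kb).

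The peaks were spread over the whole of the 1 kb allowed. Their median distance to the nearest non-coding edge was 263 bp (quartiles 88 and 584), 133 lay within 100 bp, and 280 lay outside the gene they belong to. The peaks nearest to the limit from inside were at 1700066B17Rik (999 bp, ChIP pileup 30, CUT&RUN pileup 85) and Gm16174 (997 bp, ChIP 32, CUT&RUN 94). The nearest from outside were at Gm32596 (1003 bp, ChIP 7, CUT&RUN 19) and Gm11767 (1004 bp, ChIP 23, CUT&RUN 67). A single gene, Gm32803, which lies 7.90 kb or more from the edge of the T cell adhesion gene Cd2, had 3 peaks at its ends, and 25 other genes had 2. The ChIP pileups at Gm32803 were 11, 11 and 8, with CUT&RUN pileups of 16, 14 and 19.

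Among lncRNAs the best ranked peak lay outside Gm40777 and the pseudogene Gm26976, within Dyrk2, a protein kinase gene. The ChIP summit at chr10 118882694 had a pileup of 58 (44.0 to 75.0) and ranked 43 in the list, and the CUT&RUN summit 8 bp away had 99 fragments (80.5 to 121) and ranked 336. Gm31198 followed with 54 fragments in ChIP (40.6 to 70.5) and 123 in CUT&RUN (102 to 147), 12.0 kb from the edge of Plcxd2. Both assays placed these peaks high in their lists. Neat1, the lncRNA that builds the nuclear bodies called paraspeckles, had 51 fragments in ChIP (38.0 to 67.1) and 75 in CUT&RUN (59.0 to 94.0). Its ChIP summit at chr19 5845931 lay 451 bp outside the gene, beyond the end at 5845480, and the summit of the strongest of the CUT&RUN peaks under it lay 304 bp away. The upper quartile of that gap over all 497 peaks was 67 bp.

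Other lncRNA peaks in the first 12 by ChIP rank were at predicted genes. Gm27162 had a ChIP pileup of 50 and a CUT&RUN pileup of 96, with Ets1, the gene of an ETS factor abundant in T cells, as the nearest protein-coding gene at 171 kb. Gm52095 had 48 in ChIP and 98 in CUT&RUN and lay 1.69 kb from the edge of Arhgef3, which encodes an activator of small GTPases. Gm29863 had 48 and 116. Distance is all that ties such a gene to the peak. The others were Gm16350, inside Arhgef10, with 45 in ChIP and 103 in CUT&RUN, Gm45995, inside Art2b, with 43 and 87, and A630026N12Rik, inside Gabpb1, with 45 and 32. A630026N12Rik had a far lower place in the CUT&RUN list (rank 6627) than in the ChIP list (rank 138).

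By CUT&RUN pileup the leading lncRNA was Gm31869, with 132 fragments (110 to 157) at chr1 161766800 and a ChIP pileup of 15 (8.40 to 24.7). The nearest protein-coding edge, at 13.9 kb, is that of Fasl, the ligand through which T cells kill by way of Fas. Gm51819, near the glycosyltransferase gene B4galnt1, had 131 in CUT&RUN and 27 in ChIP. The peak shared by Gm46733 and the pseudogene Gm13450, 1.94 kb from Traf1, which encodes an adaptor of tumour necrosis factor receptors, had 124 in CUT&RUN and 40 in ChIP. Gm36596 had 118 in CUT&RUN and 29 in ChIP, and Gm46785, 37.7 kb from the metabolic kinase gene Pdk1, had 118 and 21. The 8 highest CUT&RUN pileups thus spanned ChIP pileups of 15 to 57.

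Peaks also lay at lncRNAs whose nearest protein-coding gene is known from T cells, and the examples here were picked out after their values were seen. Gm30217, 35.2 kb from Tcf7, a transcription factor of naive and memory T cells, had 37 in ChIP and 62 in CUT&RUN. Gm19585, whose nearest protein-coding gene is Satb1, a chromatin organiser of T cells, 316 kb or more away, had 2 peaks, with ChIP pileups of 20 and 17 and CUT&RUN pileups of 99 and 23. No comparison with other lncRNAs was made for this choice.

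The widely known lncRNAs had peaks of ordinary size apart from Neat1. Of 27 such genes 6 had a peak at an end, among them Malat1, an abundant nuclear lncRNA, with 18 in ChIP (10.7 to 28.4) and 17 in CUT&RUN and a ChIP summit 625 bp upstream of its start. Ftx, a lncRNA of the X inactivation centre, had 12 and 25, Dubr 11 and 38, and Lncpint 10 and 18. Ptprv, which the table lists as a pseudogene, had 8 in ChIP and 22 in CUT&RUN. Mir22hg, the host transcript of a microRNA, was the 1 of 9 microRNA hosts with a peak, with 14 in ChIP and 86 (68.8 to 106) in CUT&RUN. Over all lncRNA genes the share was the 2.9% given above.

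The strand of a lncRNA in the promoter table shows which of its ends is the start. Of 299 pairs of lncRNA gene and peak with a window 207, or 69.2% (63.7 to 74.4), were nearer to the start than to the other end, against 93.6% (92.7 to 94.4) of 3289 such pairs at protein-coding genes. In ChIP-only peaks at lncRNAs the share was 69.7% of 165. Of the 207 pairs at starts 117 had the summit upstream. Of the summits at starts 60.4% (53.4 to 67.1) were within 250 bp, against 72.6% (71.0 to 74.2) at protein-coding starts, and 37.4% (28.5 to 46.9) of ChIP-only summits at lncRNA starts. The median distances were 179 bp, 107 bp and 354 bp in the same order. In these sets, summits at lncRNA edges were less often at the start than those at protein-coding edges, and lay farther from it. The rule removed lncRNA summits that also lay beside a protein-coding edge, and nothing similar was removed from the protein-coding pairs. The part of that selection in the difference was not tested.

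**Figure D3:**
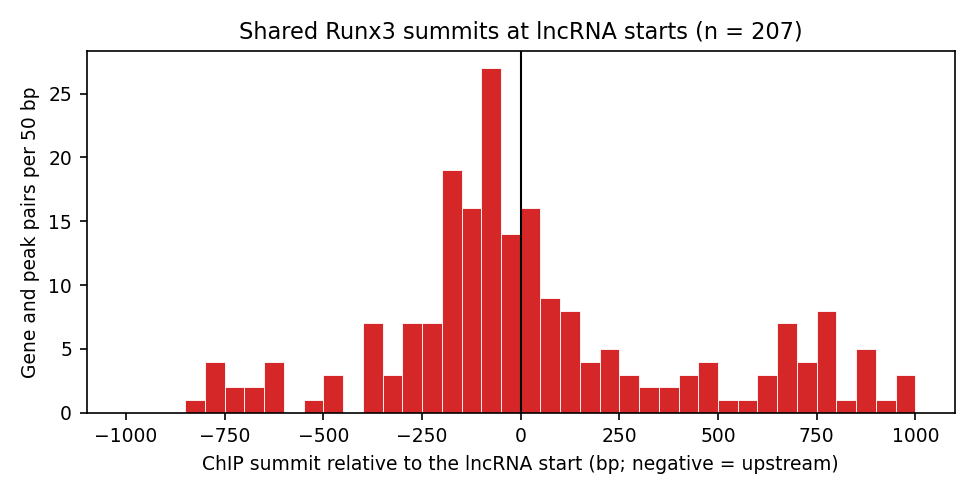
Number of pairs of lncRNA gene and shared peak in 50 bp steps (vertical axis) by the distance of the ChIP summit from the lncRNA's start in bp (horizontal axis, negative is upstream), for the 207 pairs nearer to the start than to the other end. The counts are highest just upstream of the start, and 117 of the 207 summits lie upstream.

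Promoter windows that held the ChIP summit of a peak at a lncRNA often contained a RUNX hexamer. Of 106 such windows 44.3% (34.7 to 54.3) contained TGTGGT, 17.0% contained TGCGGT and 56.6% (46.6 to 66.2) contained either, on either strand. Of 2062 protein-coding windows with a shared summit 19.4% (17.7 to 21.2) contained TGTGGT, 21.8% TGCGGT and 39.4% (37.3 to 41.6) either. Of all 11574 lncRNA windows 24.0% (23.2 to 24.7) contained either, and of all 21044 protein-coding windows 21.4% (20.8 to 22.0), with 22.3% over all 32618 windows of the table. The form with T was more frequent in lncRNA windows with a shared peak than in protein-coding ones, with intervals that did not overlap, and the form with C was not. Base composition differed along with it: the median GC content was 56.8% in the lncRNA windows with a peak, 63.3% in the protein-coding windows with a peak and 48.3% in all lncRNA windows, and its part in the difference was not tested. A second RUNX hexamer was present in 17.9% of lncRNA windows with a peak, against 5.09% of protein-coding windows with one.

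In 35 lncRNA windows with a ChIP-only summit 25.7% (12.5 to 43.3) contained TGTGGT and 42.9% either hexamer, intervals too wide to set them apart from shared peaks. The hexamers also lay near the summits. In windows with both summits and a RUNX hexamer, the nearest one was 13.5 bp from the ChIP summit at the median (54 lncRNA windows), against 24.5 bp in 756 protein-coding windows. From the CUT&RUN summit the medians were 27.5 bp and 33.5 bp. Windows of the same gene can repeat a distance, and a second RUNX hexamer, more frequent in the lncRNA windows, can shorten the nearest distance. The part of either in these distances was not tested. The nearest hexamer was within 30 bp of the ChIP summit in 68.5% (54.4 to 80.5) of lncRNA windows and 56.6% (53.0 to 60.2) of protein-coding windows, so those intervals overlapped. A match is a description of the letters, not of a binding site.

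ETS hexamers split by form in the same direction. CCGGAA is richer in GC than CAGGAA, and these window sets differed in GC content as given above. The part of base composition in this split was not tested. CAGGAA was in 48.1% (38.3 to 58.0) of lncRNA windows with a shared summit, against 24.7% (22.8 to 26.6) of protein-coding windows with one and 33.5% of all lncRNA windows. CCGGAA was in 17.9% (11.2 to 26.6), against 38.4% (36.3 to 40.6) and 7.94%. Together they were in 59.4% of lncRNA windows and 53.7% of protein-coding windows with a shared summit. A RUNX and an ETS hexamer stood together in 35.8% of lncRNA windows with a shared summit, against 20.7% of protein-coding ones and 9.53% of all lncRNA windows. The stretches of Gm30369 and Gm4668 printed above hold a CAGGAA beside their RUNX hexamer. CCGGAA can overlap its own reverse complement, and RUNX and ETS hexamers can share bases at their ends; each form counts once per window.

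**Figure D4:**
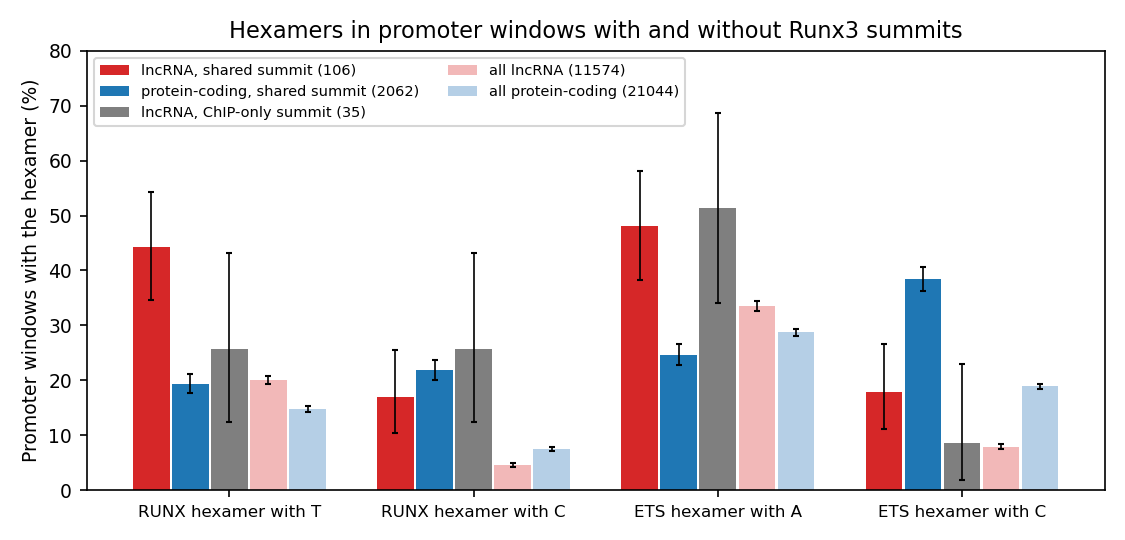
Percentage of RefSeq promoter windows of 300 bases that contain each hexamer on either strand (vertical axis), with exact 95% intervals, for lncRNA windows with a shared summit (106), protein-coding windows with a shared summit (2062), lncRNA windows with a ChIP-only summit (35) and all lncRNA and protein-coding windows. RUNX with T is TGTGGT, RUNX with C is TGCGGT, ETS with A is CAGGAA and ETS with C is CCGGAA. The forms with T and A are higher in lncRNA windows with a shared summit (44.3% and 48.1%) than in protein-coding ones (19.4% and 24.7%). GC content also differed between these windows, and its part was not tested.

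Among the lncRNAs with a peak were several hosts of snoRNAs. Their spliced RNA is made as the carrier of snoRNAs, which guide the modification of ribosomal and other RNAs. Of 18 host genes on a list 7 had a peak, or 38.9% (17.3 to 64.3), against 2.9% of lncRNA genes. Snhg1, Snhg6 and Snhg10 also had a shared summit within 1 kb, but beside a protein-coding edge, and do not count among the 7. The list holds expressed and well annotated genes, and the lncRNAs of the table were not matched to it on either.

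Snhg9 led with 29 in ChIP (19.4 to 41.6) and 59 in CUT&RUN (44.9 to 76.1), with a ChIP summit 68 bp upstream of the start. The sequence around it, printed above, has 1 TGTGGT. Snhg5 had 22 in ChIP and 26 in CUT&RUN with the summit 1 bp upstream of the start, Snhg15 had 20 and 26, Snhg17 had 20 and 13, and Snhg8 had 18 and 32. The summit of Snhg17 was 3 bp upstream of its start, and those of Snhg15 and Snhg8 87 and 189 bp upstream. Snhg3, with 8 and 14, was the lowest, and at Snhg12, with 17 and 15, the summit was 787 bp inside the gene. Of these 7 genes 5 thus had the summit upstream of the start and within 200 bp of it.

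Of the snoRNA class itself, with 10 peaks, the best ranked was at Scarna2, a guide RNA of Cajal bodies, with 43 in ChIP (31.1 to 57.9) and 38 in CUT&RUN and the summit 414 bp outside the gene. Gm25846 had 37 and 21. The other leading peaks of this class were those of Snhg9, which is also at Snora78 and Snora64, and of Snhg15. With each peak counted for its nearest gene alone, 5 of the 10 remained with snoRNA genes.

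At microRNA genes there were 12 peaks. The microRNAs are short RNAs that pair with messenger RNAs mainly through their seed, bases 2 to 8. Of 60 microRNA genes known from T cells 3 had a peak, Mir212, Mir132 and Mirlet7i (5.0%, 1.04 to 13.9), against 1.06% of all microRNA genes, which that interval includes, and of 27 genes of microRNAs typical of other tissues none had (upper limit of the interval 12.8%). Mir150 had a shared summit within 1 kb, but beside a protein-coding edge. The mature sequences of these 3 genes follow, as RefSeq gives them for GRCm38.p6, with the seed in capitals, to show that the 3p forms of the neighbours Mir212 and Mir132 share a seed.
mmu-miR-212-3p: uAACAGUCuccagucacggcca
mmu-miR-132-3p: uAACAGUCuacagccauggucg
mmu-miR-212-5p: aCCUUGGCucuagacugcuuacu
mmu-miR-132-5p: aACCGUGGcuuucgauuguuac
mmu-let-7i-5p: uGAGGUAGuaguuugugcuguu
mmu-let-7i-3p: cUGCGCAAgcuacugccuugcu

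Mir212 and Mir132 shared their peak. The ChIP summit at chr11 75173578 lay between the genes, 100 bp from Mir212 and 104 bp from Mir132, with a pileup of 29 (19.4 to 41.6), and CUT&RUN had 87 fragments (69.7 to 107) over its summit at 75173760. The CUT&RUN summit was thus 182 bp from the ChIP one, on the side of Mir132. Mirlet7i, a member of the let-7 family, had 16 in ChIP (9.15 to 26.0) and 13 in CUT&RUN (6.92 to 22.2), 312 bp from the gene. In all, 12 of the 13 microRNA genes matched the sequence table with 19 mature sequences, and the 212-3p and 132-3p pair was the one case of a shared seed among them. Of the other genes Mir12181 had 23 and 35, Mir1893 21 and 23, and Mir8119, with Lck, the kinase that starts T cell receptor signalling, as the nearest protein-coding gene, 21 and 45. Of these 12 peaks 8 had their summit inside a protein-coding gene.

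Receptor segments showed the narrowest placement. Of their 25 peaks 19 were at V segments of the immunoglobulin heavy chain (Ighv), which B cells rearrange to make antibodies. The table holds 183 Ighv segments, so 10.4% (6.37 to 15.7) had a peak. None of the 162 V segments of the immunoglobulin kappa chain (Igkv) had (upper limit 2.25%), and of the V segments of the T cell receptor alpha chain (Trav) 4 of 130 had one (3.08%, 0.845 to 7.69). Trbv1 and Trbj2-7, segments of the T cell receptor beta chain, had 1 each.

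Of the 19 Ighv peaks 18 had the ChIP summit within 100 bp of an end of the segment, and in all 18 (100%, 81.5 to 100) it was the end with the lower coordinate. All 32 D, J and C segments of the heavy chain lie below the V segments, at 113256204 to 113526809 on chromosome 12, against 113572929 to 116009954 for the V segments. The lower end is therefore the one that faces them, where a V segment carries the recombination signal for joining. The ChIP summits lay 3 to 55 bp from that end, 24.5 bp at the median, with 10 outside the segment and 8 inside. The CUT&RUN summits of these 18 also lay within 100 bp of it, 9 outside, and the assays' summits were 18.5 bp apart at the median.

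The exception, Ighv1-67, had its summit 897 bp beyond the other end. Counted over each list on its own, ChIP had 21 summits and CUT&RUN 37 within 100 bp of the lower end of an Ighv segment, and neither had 1 at the upper end. The same side was thus occupied in each list before overlap was asked for. By family, 17 of the 92 Ighv1 segments had a peak, as had 1 of 4 Ighv14 and 1 of 4 Ighv9 segments, against none of 21 Ighv5 and none of 16 Ighv8 segments. Ighv1 segments are near copies of each other, so these peaks are not independent and single segments are uncertain.

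**Figure D5:**
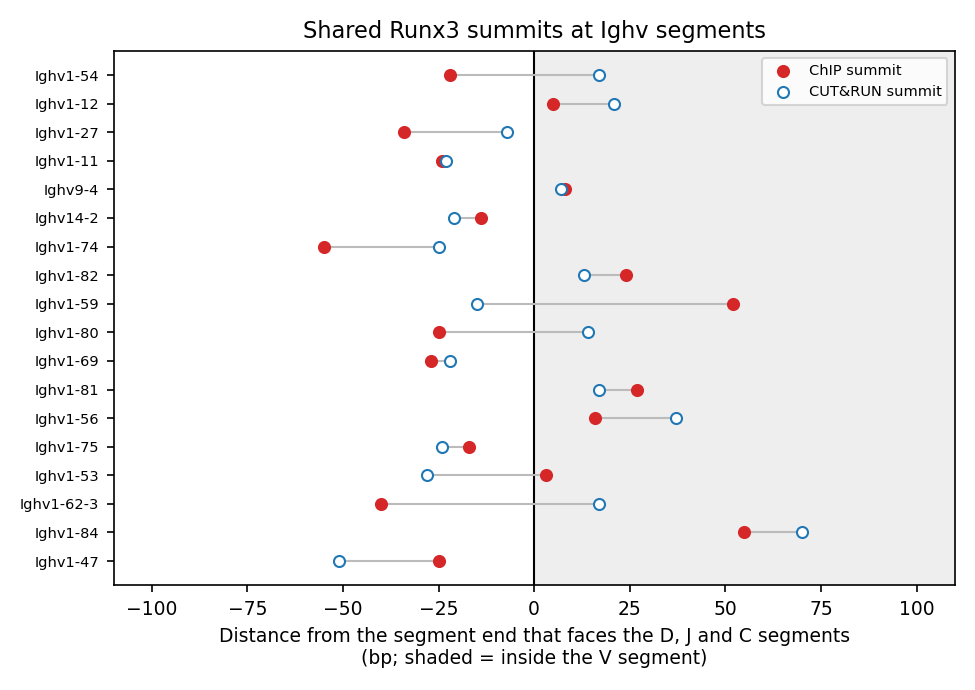
Distance of the ChIP summit (filled) and the CUT&RUN summit (open) from the end of each Ighv segment that faces the D, J and C segments, in bp. The 18 segments with a ChIP summit within 100 bp of an end are shown, in order of ChIP pileup. Both summits of every segment lie within 100 bp of that end, the ChIP ones 3 to 55 bp away.

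These peaks were moderate in height. Their ChIP pileups ran from 8 to 25 with a median of 12, and their CUT&RUN pileups from 15 to 97 with a median of 30. Ighv1-54 had 25 in ChIP (16.2 to 36.9) and 72 in CUT&RUN (56.3 to 90.7), and Ighv1-12 had 20 (12.2 to 30.9) and 97 (78.7 to 118). Ighv1-11 had 18 and 30, and Ighv1-27, listed as a pseudogene segment, 18 and 29. The background behind the 19 ChIP peaks was 1.00 to 1.38 times the list's median, below the limit of 3 times used here for a high background. Of all ChIP peaks 97.8% stood at exactly the median, so values above 1.00 were higher than for most peaks. The segments gave chromosome 12 the highest share of shared peaks at non-coding edges, 43 of 383 or 11.2%, and without them it had 24. The B cell marker Cd79a had peaks within 10 kb and Ms4a1 had none, and the part of other cells in the Ighv peaks was not tested. Of the T cell receptor segments, Trbv1 had 18 and 67 and Trav11n 17 and 38.

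At tRNA genes 16 peaks lay at 20 genes of 11 isotypes, and 4 of the genes were for tyrosine. The best ranked was at n-TYgta10 and n-TTtgt1 on chromosome 14, with 33 in ChIP (22.7 to 46.3) and 66 in CUT&RUN. The summits lay a median of 219.5 bp (10 to 487 bp) from the nearest tRNA gene end, against 280.0 bp (0 to 999 bp) from the nearest lncRNA end for the peaks at lncRNAs. n-TRtcg5 had 24 and 39, n-TSgct5 had 23 and 27, and n-THgtg4, 1 of 3 histidine tRNA genes with a peak on chromosome 2, had 23 and 25. A single peak on chromosome 3, at 19628679, lay within 1 kb of 4 tRNA genes, with 15 in ChIP and 24 in CUT&RUN.

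At snRNA genes ChIP pileups were 16 at the median and CUT&RUN pileups 21, against 14 and 33 over all 497 peaks. Gm24468 led with 38 in ChIP and 104 in CUT&RUN, followed by Gm23296 with its neighbour LOC115488100 (36 and 43), Rnu1a1, a gene of the U1 snRNA, (34 and 21) and Gm25064 (33 and 49). The protein-coding gene Tex14 held 3 of the peaks within its span, at Rnu1a1, Gm22068 and Rnu3b4. Their ChIP pileups were 34, 18 and 15 and their CUT&RUN pileups 21, 16 and 20. Of 13 structural and RNA polymerase III genes 1, the vault RNA gene Vaultrc5, had a peak (10 and 19), and Rmrp, Rnu12, Rnu7 and Bc1 had a shared summit beside a protein-coding edge.

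Pseudogenes held the highest CUT&RUN pileup of all 497 peaks. The peak at Gm7400 on chromosome 18, 36.0 kb from the edge of the kinase gene Map3k8, had 165 fragments in CUT&RUN (141 to 192) and 57 in ChIP (43.2 to 73.9), with summits 15 bp apart. Gm10060 had the highest ChIP pileup of a pseudogene, 63 (48.4 to 80.6), but a fold over background of 16.1, below the 27.3 of Gm7400, and 38 in CUT&RUN. The pair 2610005L07Rik and Gm20584 had 48 in ChIP and 49 in CUT&RUN. Gm10060 and that pair lie on chromosome 8, with ChIP summits at 19784649 and 20424844.

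A single peak stood on a high background, taken as over 3 times the list's median of 2.12 fragments. At Gm40034 the ChIP pileup was 165 (141 to 192), the highest of the 497, but the background there was 44.9 times the median and the peak ranked 5015 in the list. Its CUT&RUN pileup was 94. Leaving it out gave 496 peaks and moved none of the class counts by more than 1. Of the remaining kinds of gene, F630048H11Rik had 19 in ChIP and 44 in CUT&RUN, Gm4633, inside Cd47, had 17 and 62, and Gm19281, inside Sema4d, had 11 and 86. The entry Tcrb, for the T cell receptor beta locus as a whole, shared the peak of Trbv1.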

How the data were processed

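The 2 peak lists used were called from 1 anti-Runx3 ChIP and 1 anti-Runx3 CUT&RUN library. The submitters' processing notes name Bowtie, MACS2 and the mm10 build; settings of the aligner and the treatment of reads that map to several places are not given in the sources used here. MACS2 2.1.1.20160309 kept 1 fragment per position, per the file headers. ChIP peaks passed q of 0.05 with the whole cell extract as control (9532996 of 48285251 fragments kept, 115 bp on average), and CUT&RUN peaks q of 1e-05 with no control (14068364 of 17896991 kept, 63 bp), on an alignment whose name refers to nucleosome-free fragments. The deposited lists give the pileup (a coverage signal), −log10 p-values and q-values and a fold (a ratio to background), as the authors' peak caller wrote them.

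From these, overlaps, distances and shares were computed with pandas 2.3.3 and scipy 1.17.1, with 49550 genes of a RefSeq table (GRCm38.p6). Intervals are exact at 95%, Clopper-Pearson for shares and Poisson for pileups, and hold counting error only. With 1 library per assay there is no test and no p-value. Background was taken as (pileup + 1) divided by the fold. Ranks follow the q-value. Of several CUT&RUN peaks under a ChIP peak the highest was used. The table has no strand, so starts were known for genes with a promoter window. Scripts were tested on simulated data.

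Peaks named are the 12 best by ChIP rank and the 8 highest in CUT&RUN outside high background, the 4 best of each class, those of 6 gene lists and those next to the 1 kb limit; the rest, including the Ighv results, were chosen after their values were seen. The set of peaks and the lists were chosen with earlier results of these data known. Some items are not reported here.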

Additional observations from a re-analysis of the deposited data

Results flagged for a closer look

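The CUT&RUN list also held 19 peaks on the mitochondrial genome, outside the chromosomes considered, and the ChIP list held none (0 of 13166 peaks, which allows a share of up to 0.0228%). Of the 19, 4 had their summit inside a mitochondrial tRNA or rRNA gene, and their folds over background ran from 1.66 to 3.82. They drew attention as signal in data that no comparison used. The normal serum library that would give their background was not analysed here.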

How the results depend on the processing

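No paired analysis was possible because there was 1 library per assay. Of 114 alternative values for 17 results, 94 stayed within set limits and 20 did not. The limits were 1.5 times for a count, and the interval or spread for a share or median. The groups set beside these peaks were not recomputed, so the comparisons with them were not checked under these settings. With a window of 0.5 kb the share of shared peaks was 4.37%, pseudogene peaks were 30, snoRNA peaks 5 and the share of lncRNA pairs at the start 77.1%; with 2 kb the share of shared peaks was 7.56% and pseudogene peaks were 95. With an overlap of at least 0.5 of the ChIP peak's width 277 peaks remained, 211 of them at lncRNA, 34 at pseudogene, 16 at receptor segment, 7 at snRNA, 7 at tRNA, 6 at microRNA and 4 at snoRNA genes, and their median CUT&RUN pileup was 40. With ChIP q of 1e-05 or less 15 receptor segment peaks were left, 10 of them at Ighv segments, and the median pileups were 17 in ChIP and 38 in CUT&RUN. With each peak counted for its nearest gene 5 were at snoRNA genes. The Ighv and hexamer alternatives were chosen after seeing the data. The widths of the windows, the overlap and the threshold set how many peaks are counted. The normal serum control, replicates and the handling of repeated sequence limit what these lists show.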

Other observations

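The rule left out 27 shared ChIP peaks on other sequences than chromosomes 1 to 19 and X. Chromosome X had 5 of the 497 peaks, or 1.01% (0.327 to 2.33), against 1.36% (0.991 to 1.81) of shared peaks at protein-coding edges. More than 1 CUT&RUN peak lay under 29 of the 497 ChIP peaks (5.84%, 3.94 to 8.27), against 6.21% (5.41 to 7.08) at protein-coding edges and 4.10% (3.56 to 4.69) at no edge. Of the 324 peaks outside protein-coding genes 71 were over 50 kb from any protein-coding edge.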
